A study of Mus musculus with 2 samples.

Results

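Hes1 and 8 further genes of the Notch pathway (Notch1, Notch2, Notch3, Jag1, Dll1, Hey1, Heyl and Nrarp) were followed across the cell classes of the embryonic mouse pancreas. The members were taken by symbol, and all 9 matched exactly 1 row each of the 27998 genes in the deposited matrices. The study profiled single cells of 1 pancreas from an embryo titled as a knockout and 1 pancreas from a control embryo, both C57BL/6 and both of embryonic day 13.5. The design text calls the knockout genotype Dpy30∆P. Neither it nor the labels spell out what ∆P stands for, which cells lose the gene, which Cre or promoter was used, or whether the control carries any allele in common with the knockout. The 2 libraries are therefore called knockout and control here by their titles alone. The tissue was dissociated with trypsin at 37 °C, and sorted cells were loaded on the 10x Chromium platform, which counts messenger RNA molecules at their 3′ ends by unique molecular identifiers (UMIs).

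Notch receptors are cut after they meet a Delta or Jagged ligand on a neighbouring cell, and the freed intracellular domain joins the DNA-binding protein Rbpj to switch on genes of the Hes and Hey families. Hes1 is a transcriptional repressor that oscillates in many progenitors. In the mouse pancreas it holds back Neurog3, the factor that commits epithelial cells to the endocrine fate, and Neurog3 in turn switches on Dll1, so that a committing cell signals to its neighbours. The branching epithelium at this stage has tips that become acinar cells and a trunk that becomes ducts and islets, and it is embedded in mesenchyme.

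The knockout library held 3044 cell barcodes and 28033433 UMIs, and the control library 3900 barcodes and 32702089 UMIs. The median barcode had 8049 UMIs in the knockout library and 6825.5 in the control library, and 22 barcode sequences occurred in both. After filtering and doublet removal, 2939 knockout and 3750 control cells were sorted into classes by raw UMIs of marker genes, none of them one of the 9 members. The trunk class (Spp1 or Sox9 without Neurog3) held 110 knockout and 160 control cells. Epithelial cells with 1 to 4 Neurog3 UMIs numbered 46 in the knockout and 87 in the control library, and those with 5 or more numbered 54 in the knockout and 129 in the control library. Tip cells, which carry acinar genes such as Cpa1, numbered 225 in the knockout and 279 in the control library. Mesenchyme had 1406 knockout and 1800 control cells, mesothelium (the outer lining) 115 knockout and 146 control cells, and endothelium (blood vessel lining) 32 knockout and 29 control cells. The gates left 880 knockout and 966 control cells without a class. By the mesenchyme gate, each of these held fewer than 10 UMIs over the collagen and PDGF receptor markers. The endocrine progenitor and mesothelial gates were checked on markers that no gate used. Neurod1, a target of Neurog3, stood at 152 CPM in knockout and 187 CPM in control cells with 5 or more Neurog3 UMIs and at 0 in the trunk of both libraries. Wt1, a mesothelial factor, stood at 192 CPM in knockout and 167 CPM in control mesothelium.

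UMIs were summed over the cells of a class in a library and divided by all UMIs of that class (CPM, scaled to 1000000). With 1 library per group there was no replicate and no test. The 95% intervals below cover counting error only and say nothing of the spread between embryos. Ratios are the log2 of (CPM + 5) in the knockout over the control library. A gene was counted as past the fold when that ratio reached 1.5-fold in either direction and the gene had at least 20 UMIs over both libraries. CPM compares 1 gene between classes, not 1 gene with another.

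Promoter windows of 300 bases (250 before and 50 after a start site, RefSeq, GRCm38.p6) were at hand for 6 of the 9 members and not for Hes1, Hey1 and Heyl. Those of Dll1 and Nrarp are shown because these 2 members differed in opposite directions between trunk cells and cells with 5 or more Neurog3 UMIs (values below). Capitals mark each CANNTG, the E-box letters that basic helix-loop-helix factors such as Neurog3 can bind. The first Dll1 window lies inside the gene body of GENCODE M21 (chr17:15367354-15376872, minus strand), the second lies just upstream of it, and the Nrarp window spans the annotated start of the gene (chr2:25180758-25183339, plus strand).
Dll1 window at chr17:15375774-15376073, minus strand: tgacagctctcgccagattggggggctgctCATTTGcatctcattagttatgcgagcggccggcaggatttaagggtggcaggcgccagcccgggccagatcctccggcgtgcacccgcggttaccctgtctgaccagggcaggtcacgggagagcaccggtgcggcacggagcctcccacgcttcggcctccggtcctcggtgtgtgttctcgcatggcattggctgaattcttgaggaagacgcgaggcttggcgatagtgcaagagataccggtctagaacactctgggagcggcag
Dll1 window at chr17:15376883-15377182, minus strand: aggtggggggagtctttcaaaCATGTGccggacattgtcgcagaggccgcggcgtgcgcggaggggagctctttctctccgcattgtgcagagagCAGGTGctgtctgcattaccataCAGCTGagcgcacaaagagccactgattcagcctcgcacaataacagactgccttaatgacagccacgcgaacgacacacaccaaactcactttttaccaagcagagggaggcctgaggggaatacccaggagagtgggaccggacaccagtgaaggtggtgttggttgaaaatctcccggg
Nrarp window at chr2:25180508-25180807, plus strand: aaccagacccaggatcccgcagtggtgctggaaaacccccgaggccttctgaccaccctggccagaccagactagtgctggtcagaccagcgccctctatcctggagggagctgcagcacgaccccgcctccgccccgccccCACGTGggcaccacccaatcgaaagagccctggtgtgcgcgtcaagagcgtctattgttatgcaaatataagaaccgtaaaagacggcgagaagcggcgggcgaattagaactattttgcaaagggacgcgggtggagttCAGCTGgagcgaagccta
The second Dll1 window held 3 such boxes, the first held 1 and the Nrarp window 2. An E-box occurred in 72.3% of all 32851 windows of this length, so its presence sets these genes apart from few others. The letters TGGGAA, the core of an Rbpj motif, were searched on both strands and occurred in 25.6% of all windows and in 0 of the 7 windows of the members. A match is only a match of letters, and binding was not measured.

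Among the receptors, Notch1 was at much the same level in the trunk and tip of the 2 libraries. In knockout trunk cells it had 52 UMIs (35.6 CPM, interval 26.6 to 46.7), against 77 UMIs in control trunk cells (38.0 CPM, 30.01 to 47.5). In tip cells Notch1 stood at 45.7 CPM in the knockout library and 47.2 CPM in the control library. In each library it was highest in endothelium (73.5 CPM in knockout and 76.1 CPM in control cells), and it was lower in mesenchyme (15.5 CPM in knockout and 20.9 CPM in control cells) than in each of the 4 epithelial classes. The mesenchyme ratio was −0.33, with intervals just apart (13.3 to 17.96 in knockout and 18.4 to 23.5 in control cells). No class carried Notch1 past the fold. Its largest ratio, 0.45, was in cells with 5 or more Neurog3 UMIs, at 57.7 CPM in knockout cells and 40.8 CPM in control cells, with intervals that overlap (40.4 to 79.8 in knockout and 30.2 to 53.7 in control cells).

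Notch2 had another distribution. Mesenchyme had the highest level, with 1103 UMIs in knockout cells (94.6 CPM, 89.1 to 100.4) and 1280 UMIs in control cells (101.9 CPM, 96.4 to 107.6), and endothelium had 1 UMI in the knockout and 0 UMIs in the control library. A count of 0 allows up to 9.51 CPM in control endothelium. In the trunk Notch2 stood at 69.8 CPM in knockout cells and 63.2 CPM in control cells, above its tip level of 26.0 CPM in knockout cells and 29.9 CPM in control cells. Cells with 5 or more Neurog3 UMIs had 21 Notch2 UMIs in the knockout (33.6 CPM, 20.8 to 51.4) and 10 UMIs in the control library (8.15 CPM, 3.91 to 15.0), a log2 ratio of 1.55. That difference rests on a single cell, which held 16 of the 21 knockout UMIs. Without the cell richest in Notch2 in each library the counts were 5 in knockout and 8 in control cells, and the ratio was 0.20.

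Notch3, a receptor otherwise known from pericytes and vessel walls, was thinly counted. The trunk had 36 UMIs in 29 of the 110 knockout cells (24.6 CPM, 17.3 to 34.1) and 28 UMIs in 24 of the 160 control cells (13.8 CPM, 9.19 to 19.98), a ratio of 0.66. The intervals overlap, and when each cell was thinned to 3000 UMIs the ratio turned to −0.24, so the direction is not settled by these counts. In mesenchyme Notch3 stood at 16.5 CPM in knockout cells and 14.6 CPM in control cells, a ratio of 0.13.

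**Figure D1:**
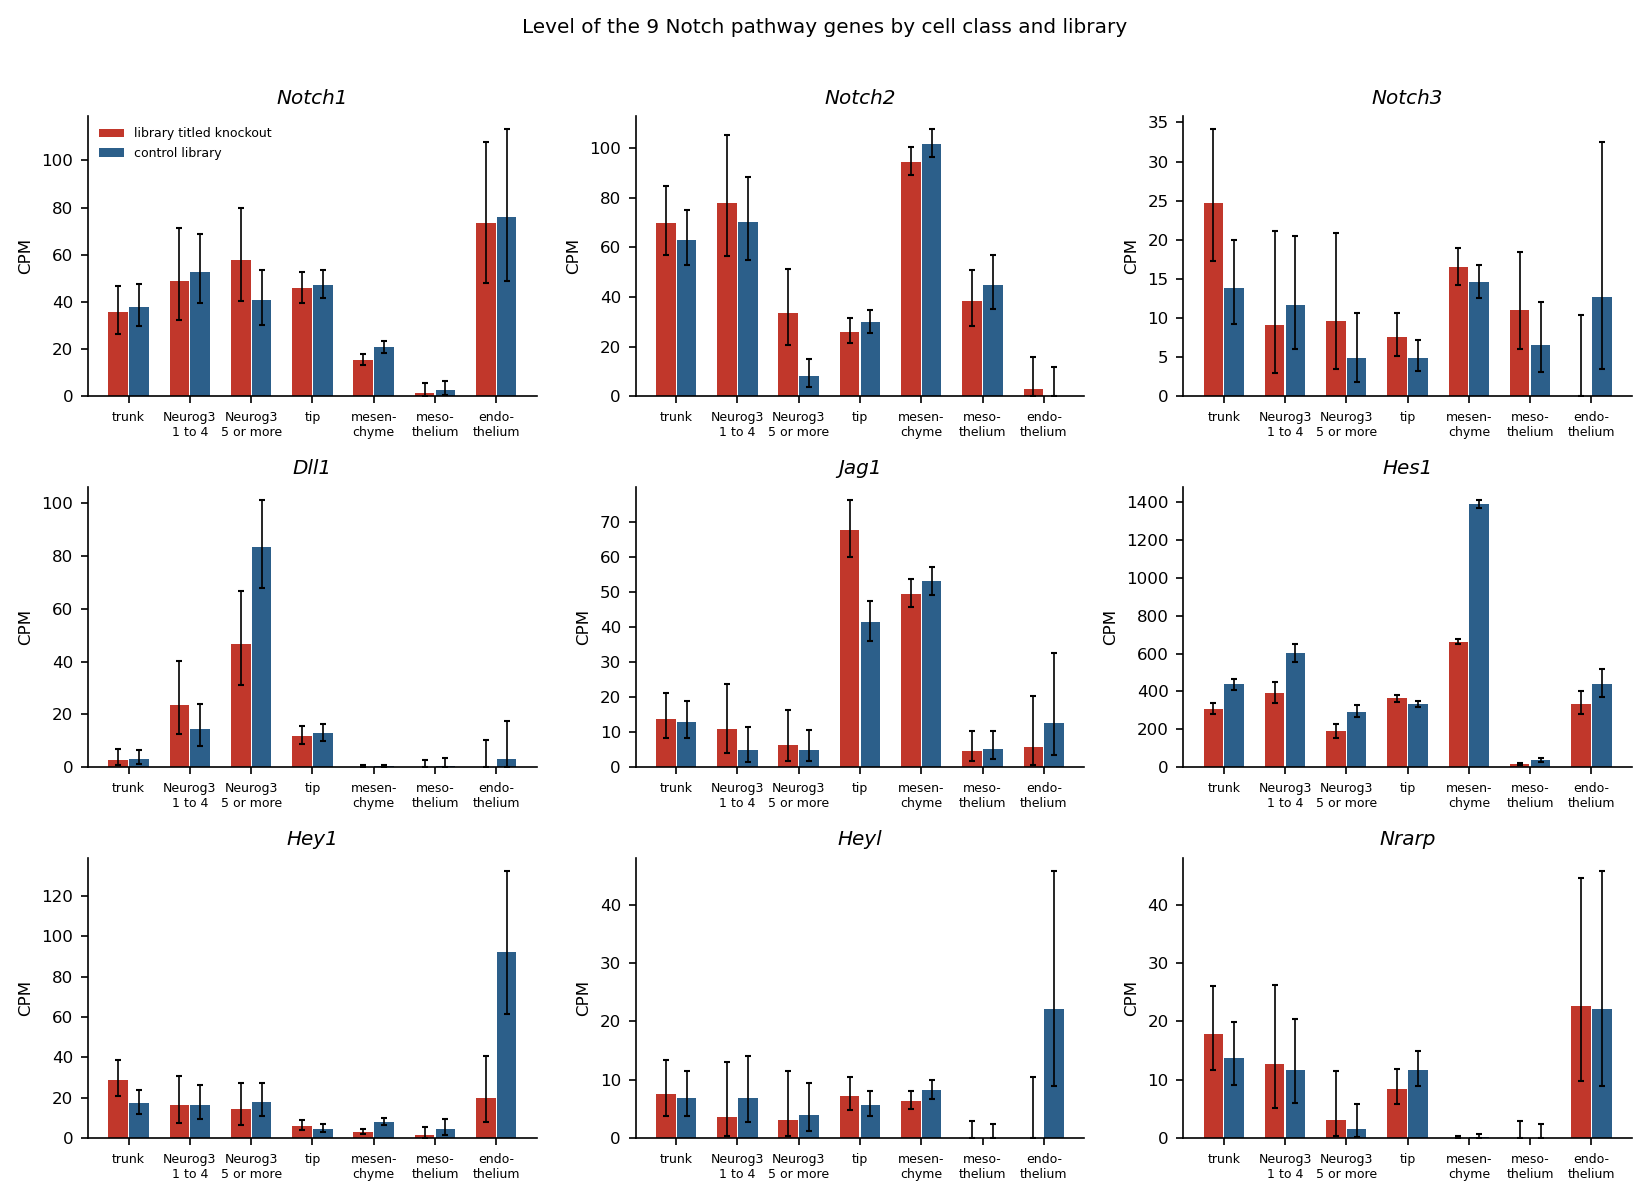
CPM of each of the 9 genes (vertical axis, own scale per panel) in 7 cell classes, with the knockout library in red left of the control library in blue and bars for the 95% Poisson interval of the UMI count. Hes1 in mesenchyme stands at 663 CPM in the knockout and 1387 CPM in the control library, while Notch1, Notch2 and Jag1 in mesenchyme differ by less than 1.5-fold.

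The 2 ligands differed in their distribution over the classes, though both were counted in tip cells. Dll1, the Delta ligand, was counted almost entirely in the epithelium (95 UMIs in knockout and 191 in control cells), while mesenchyme had 3 Dll1 UMIs in 1406 knockout cells and 5 UMIs in 1800 control cells. Within the epithelium outside tip and hormone-lineage cells, the classes with Neurog3 had the higher levels. Trunk cells had 4 UMIs in the knockout (2.74 CPM, 0.746 to 7.01) and 6 UMIs in the control library (2.96 CPM, 1.09 to 6.45). Cells with 1 to 4 Neurog3 UMIs had 13 UMIs in the knockout (23.6 CPM, 12.6 to 40.4) and 15 UMIs in the control library (14.6 CPM, 8.19 to 24.1), a ratio of 0.54 with intervals that overlap.

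In cells with 5 or more Neurog3 UMIs, Dll1 had 29 UMIs in 15 of 54 knockout cells (46.5 CPM, 31.1 to 66.7), against 102 UMIs in 51 of 129 control cells (83.1 CPM, 67.8 to 100.9). The knockout level was lower by a log2 ratio of −0.78 (fold 0.559, interval 0.356 to 0.851). Neurog3 itself stood at 2313 CPM in these knockout cells and 3169 CPM in these control cells, and Chga, a later endocrine gene, at 35.2 CPM in the knockout and 179 CPM in the control library. The part of these differences in the Dll1 ratio was not tested. Against the trunk of the same library, Dll1 was higher in these cells by 2.73 on the log2 scale in the knockout and by 3.47 in the control library. Tip cells had a lower level, 11.9 CPM in the knockout (49 UMIs) and 12.8 CPM in the control library (68 UMIs), which was above the trunk level in a class with almost no Neurog3 (1.46 CPM in knockout and 3.97 CPM in control cells). Hormone-lineage cells, with Neurog3 at 88.7 CPM in the knockout and 27.4 CPM in the control library, had 0 Dll1 UMIs, which allows up to 24.2 CPM in the knockout and 6.32 CPM in the control library.

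Jag1, the Jagged ligand, marked tips and mesenchyme. In tip cells it had 278 UMIs in 129 of 225 knockout cells (67.6 CPM, 59.9 to 76.0), against 219 UMIs in 107 of 279 control cells (41.4 CPM, 36.1 to 47.2). The intervals are apart, and the ratio was 0.65 (fold 1.63, interval 1.36 to 1.96). After thinning each cell to 3000 UMIs, 19.6% of knockout and 10.8% of control tip cells held a Jag1 UMI (exact binomial intervals 14.6 to 25.4 in the knockout and 7.37 to 15.0 in the control library). The median tip cell had 17550 UMIs in the knockout and 17752 in the control library, so depth was close. Tip gene levels differed beside it, with Cpa1 at 1594 CPM in knockout and 2361 CPM in control tip cells and Ptf1a at 101.9 CPM in knockout and 43.6 CPM in control tip cells. Their part in the Jag1 ratio was not tested. In mesenchyme Jag1 stood at 49.5 CPM in knockout cells and 52.9 CPM in control cells (ratio −0.09), and in the trunk at 13.7 CPM in knockout cells and 12.8 CPM in control cells (ratio 0.07).

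Hes1, the repressor downstream of the receptors, was lower in knockout than in control mesenchyme. It had 7733 UMIs in the knockout (663 CPM, 649 to 678), against 17429 UMIs in the control library (1387 CPM, 1367 to 1408), a ratio of −1.06 (fold 0.478, interval 0.466 to 0.491). Of 12494 genes with at least 20 UMIs in mesenchyme, only 16 had a lower ratio. Taking unclassed cells into the mesenchyme from 3 marker UMIs on gave −1.05. The gate markers of the class differed beside it, summing to 1981 CPM in knockout and 2519 CPM in control mesenchyme. Whether the mix of mesenchymal cells differed, and its part in the Hes1 ratio, was not tested.

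The 4 epithelial classes were not alike. In trunk cells Hes1 had 449 UMIs in the knockout (307 CPM, 280 to 337) and 886 UMIs in the control library (438 CPM, 409 to 467). The ratio of −0.50 did not reach 1.5-fold (fold 0.703, interval 0.626 to 0.788). Cells with 1 to 4 Neurog3 UMIs had 216 Hes1 UMIs in the knockout (392 CPM, 342 to 448) and 616 in the control library (601 CPM, 554 to 650), a ratio of −0.61. Cells with 5 or more had 118 UMIs in the knockout (189 CPM, 156 to 226) and 361 in the control library (294 CPM, 265 to 326), a ratio of −0.63. Tip cells went the other way by a small amount, with 1498 UMIs in the knockout (364 CPM, 346 to 383) and 1766 in the control library (334 CPM, 318 to 350), a ratio of 0.12. Over the whole epithelium the levels were 332 CPM in the knockout and 361 CPM in the control library, so the classes differ more than the sum shows. Mesenchyme markers (5 genes, collagens and PDGF receptors) summed to 30.8 CPM in knockout and 31.6 CPM in control trunk cells. With 1 to 4 Neurog3 UMIs the sums were 21.8 CPM in knockout and 33.1 CPM in control cells. With 5 or more they were 27.2 CPM in knockout and 28.5 CPM in control cells. Tip cells had 29.4 CPM in the knockout and 69.3 CPM in the control library. The part of mesenchyme RNA in the Hes1 ratios was not tested.

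Ordered by level, both libraries had mesenchyme first, cells with 1 to 4 Neurog3 UMIs second and mesothelium last of the 7 classes. In the knockout library the intervals of neighbours overlapped from cells with 1 to 4 Neurog3 UMIs through tip and endothelium to trunk. In the control library endothelium (440.5 CPM) and trunk overlapped, and so did tip and cells with 5 or more Neurog3 UMIs. Mesothelium had 21 Hes1 UMIs in the knockout (16.5 CPM, 10.2 to 25.2) and 59 UMIs in the control library (38.5 CPM, 29.3 to 49.7), a ratio of −1.02 that shrank to −0.31 with class gates of 10 UMIs. Endothelium had 119 UMIs in the knockout (336 CPM, 279 to 403) and 139 UMIs in the control library (440.5 CPM, 370 to 520.1), and its ratio of −0.38 changed to 0.27 after thinning. Outside these classes, neural cells stood at 542 CPM in the knockout (32 cells) and 567 CPM in the control library (18 cells). Immune cells had 22 Hes1 UMIs in 23 knockout cells (85.7 CPM, 53.7 to 129.7), against 201 UMIs in 82 control cells (263.7 CPM, 228.5 to 302.8), and 1 control cell held 33 of them. The shares of immune cells with a Hes1 UMI were near each other, at 47.8% of knockout and 46.3% of control cells before thinning and 21.7% of knockout and 26.8% of control cells after it.

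Counting Hes1 cell by cell gave the same picture in mesenchyme. After thinning to 3000 UMIs, 972 of 1398 knockout cells (69.5%, interval 67.0 to 71.9) and 1518 of 1787 control cells (84.9%, 83.2 to 86.6) held a Hes1 UMI. Before thinning the shares were 84.1% of knockout and 90.7% of control cells, at medians of 7863.5 UMIs per knockout and 6432.5 UMIs per control cell. The median thinned cell had 1 Hes1 UMI in the knockout and 4 in the control library, with quartiles of 0 and 3 in knockout cells and of 1 and 6 in control cells. The difference thus lay in the bulk of the cells and was not carried by a few. The tenth of cells richest in Hes1 held 34.3% of the thinned Hes1 UMIs in the knockout and 28.9% in the control library.

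Early hormone-lineage cells, which switch Hes1 off, gave the background for these shares. A Hes1 UMI was seen in 1 of 16 knockout cells (8.06 CPM) and in 1 of 51 control cells (2.11 CPM), at medians of 7352.5 UMIs per knockout and 8307 UMIs per control cell. After thinning it was seen in 0 of 16 knockout cells, which allows a share of up to 18.8%, and in 0 of 51 control cells, which allows up to 5.88%. The thinned share in mesothelium, 5.22% of knockout and 8.90% of control cells, is not separable from that background in either library. Nor is that of knockout cells with 5 or more Neurog3 UMIs (25.9%, 14.96 to 39.7). By CPM those cells (189, 156 to 226) did stand above knockout hormone-lineage cells (interval 0.204 to 44.9). Control mesothelium (38.5 CPM, 29.3 to 49.7) stood above control hormone-lineage cells (0.0533 to 11.7), while knockout mesothelium (10.2 to 25.2) overlapped. The other epithelial shares were above the background share. The intervals of each epithelial class, that one included, overlapped between the libraries. The thinned shares were 46.4% of knockout and 50.9% of control trunk cells, and 52.4% of knockout and 53.4% of control tip cells. With 1 to 4 Neurog3 UMIs they were 54.3% of knockout and 61.6% of control cells, and with 5 or more 25.9% of knockout and 32.8% of control cells. For all 9 members together, hormone-lineage cells had at most 2 UMIs of a gene in the knockout and at most 3 in the control library.

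**Figure D2:**
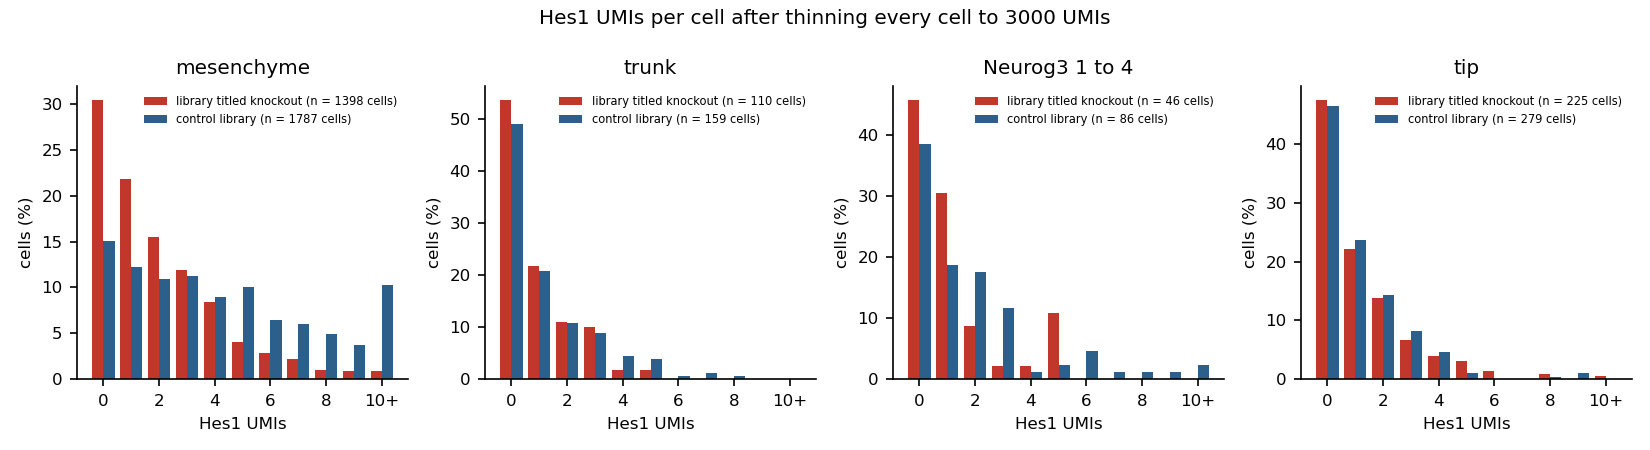
Share of cells (vertical axis, percent) by number of Hes1 UMIs (horizontal axis) after each cell was thinned to 3000 UMIs, with knockout bars in red left of control bars in blue. In mesenchyme the knockout cells are shifted to low counts (30.5% at 0, against 15.1% of control cells), while in tip cells the share at 0 is 47.6% in the knockout and 46.6% in the control library.

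Hey1 differed in opposite directions between classes. This Hes-related repressor, best known from arteries and heart, was higher in knockout trunk cells, with 42 UMIs in the knockout (28.8 CPM, 20.7 to 38.9) and 35 UMIs in the control library (17.3 CPM, 12.04 to 24.04), a ratio of 0.60 with intervals that overlap. In mesenchyme it was lower in the knockout, with 38 UMIs (3.26 CPM, 2.31 to 4.48) against 103 UMIs in the control library (8.20 CPM, 6.69 to 9.94), a ratio of −0.68. Endothelium had 7 UMIs in 6 of 32 knockout cells (19.8 CPM, 7.96 to 40.8) and 29 UMIs in 11 of 29 control cells (91.9 CPM, 61.5 to 132), a ratio of −1.97. The endothelial gene Pecam1 was at nearer levels, 339 CPM in knockout and 412 CPM in control endothelium. The mesenchyme markers were not, with 6 UMIs in knockout (16.96 CPM) and 37 UMIs in control endothelium (117 CPM). Dlk1, another gene of the ligand list, had 12 UMIs in knockout and 73 UMIs in control endothelium, a ratio of −2.60. The part of mesenchyme RNA in the endothelial ratios of Hey1, Heyl and Hes1 was not tested. How many arterial cells each library held was not tested.

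Heyl, the third Hey-type factor, was rare in each of the 7 classes, at no more than 22.2 CPM. Neural cells had 6 UMIs in 4 of 32 knockout cells (14.9 CPM, 5.45 to 32.4) and 10 UMIs in 6 of 18 control cells (55.6 CPM, 26.7 to 102.3). Its counts in trunk cells were 11 UMIs in the knockout (7.53 CPM) and 14 UMIs in the control library (6.91 CPM), and in tip cells 30 UMIs in each library (7.30 CPM in knockout and 5.67 CPM in control cells). Endothelium had 0 Heyl UMIs in 32 knockout cells and 7 UMIs in 2 of 29 control cells. Nrarp encodes a feedback inhibitor that binds the Notch intracellular domain and is itself switched on by Notch. It had 26 UMIs in knockout trunk cells (17.8 CPM, 11.6 to 26.1) and 28 UMIs in control trunk cells (13.8 CPM, 9.19 to 19.98), a ratio of 0.28. In cells with 5 or more Neurog3 UMIs only 2 Nrarp UMIs were counted in each library (3.20 CPM in knockout and 1.63 CPM in control cells). Mesenchyme, where Hes1 was highest, had 1 Nrarp UMI in 1406 knockout cells and 3 UMIs in 1800 control cells.

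Counted together, 2 of the 8 measured members (Notch3 and Hey1) were higher past the fold in knockout than in control trunk cells, where 3.51% of 9032 genes were, and 0 were lower, where 3.76% of genes were. In cells with 1 to 4 Neurog3 UMIs, 0 of 5 were higher (7.05% of genes) and 1, Hes1, was lower (8.57%). In cells with 5 or more, 1 of 5 was higher (Notch2, through 1 cell, 6.56% of genes) and 2 were lower (Hes1 and Dll1, 8.10%). Tip cells had 1 of 9 higher (Jag1, 1.93% of genes) and 0 lower (2.35%). Mesenchyme had 0 of 7 higher (0.520% of genes) and 2 lower (Hes1 and Hey1, 0.840%). In mesothelium 0 of 3 were higher (4.66% of genes) and 1, Hes1, was lower (6.19%), and in endothelium 0 of 3 were higher (11.4%) and 1, Hey1, was lower (10.8%). In the small classes a call is thus common for any gene, while in mesenchyme and tip few genes passed the fold.

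Between classes of the same library, a difference was counted when it passed 2-fold in the same direction in both. From trunk to cells with 5 or more Neurog3 UMIs, 1 of 8 measured members was higher (Dll1, 4.15% of genes) and 1 lower (Nrarp, by −1.47 in the knockout and −1.51 in the control library, 2.32% of genes). From trunk to tip, 2 of 9 were higher, Dll1 and Jag1 (1.33% of genes), with Jag1 at 1.96 in the knockout and 1.38 in the control library, and Hey1 was lower (1.61%), at −1.58 in the knockout and −1.20 in the control library. From trunk to mesenchyme, 2 of 8 were higher, Hes1 and Jag1 (7.44% of genes), and Nrarp was lower (6.76%). Hes1 was higher in mesenchyme than in trunk by 1.10 in the knockout and by 1.65 in the control library.

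Along the number of Neurog3 UMIs in a cell, Hes1 was lowest where Neurog3 was highest. In the knockout library Hes1 stood at 307 CPM with 0 Neurog3 UMIs, 402 with 1, 376 with 2 to 4, 353 with 5 to 14, 114 with 15 to 39 and 36.2 with 40 or more. The control library had 438, 465, 811, 478, 310.0 and 87.0 CPM in the same bins. The knockout level was lower in each of the 6 bins, with intervals that overlap at 1, at 5 to 14 and at 40 or more. The control library had its peak at 2 to 4 Neurog3 UMIs. The knockout bins at 2 to 4, 5 to 14 and 40 or more hold under 20 cells (18, 19 and 13), and the smallest control bin holds 35. Cells past the tip or Chga gate were left out of the bins below 5 only. With 5 or more Neurog3 UMIs, Cpa1 stood at 46.5 CPM in knockout and 152 CPM in control cells. Chga stood there at 35.2 CPM in knockout and 179 CPM in control cells. The part of this change in cell selection in the levels along the bins was not tested.

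Dll1 was low without Neurog3 in both libraries. From 0 Neurog3 UMIs upwards it stood at 2.74, 8.87, 47.0, 24.9, 52.9 and 72.4 CPM in the knockout and at 2.96, 3.21, 32.4, 94.1, 113 and 38.4 CPM in the control library. In the control library the level peaked at 15 to 39 Neurog3 UMIs (49 UMIs) and was lower beyond (15 UMIs), whereas in the knockout library the last bin, with 10 Dll1 UMIs in 13 cells, was the highest. Intervals overlapped between the libraries in every bin but that of 5 to 14. Notch2 dropped out along the same axis, to at most 1 UMI per bin from 15 Neurog3 UMIs on in either library. Hes6, a Hes relative that antagonises Hes1 and is induced with neuronal and endocrine commitment, reached 572 CPM in the last knockout bin and 614 CPM in the last control bin.

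**Figure D3:**
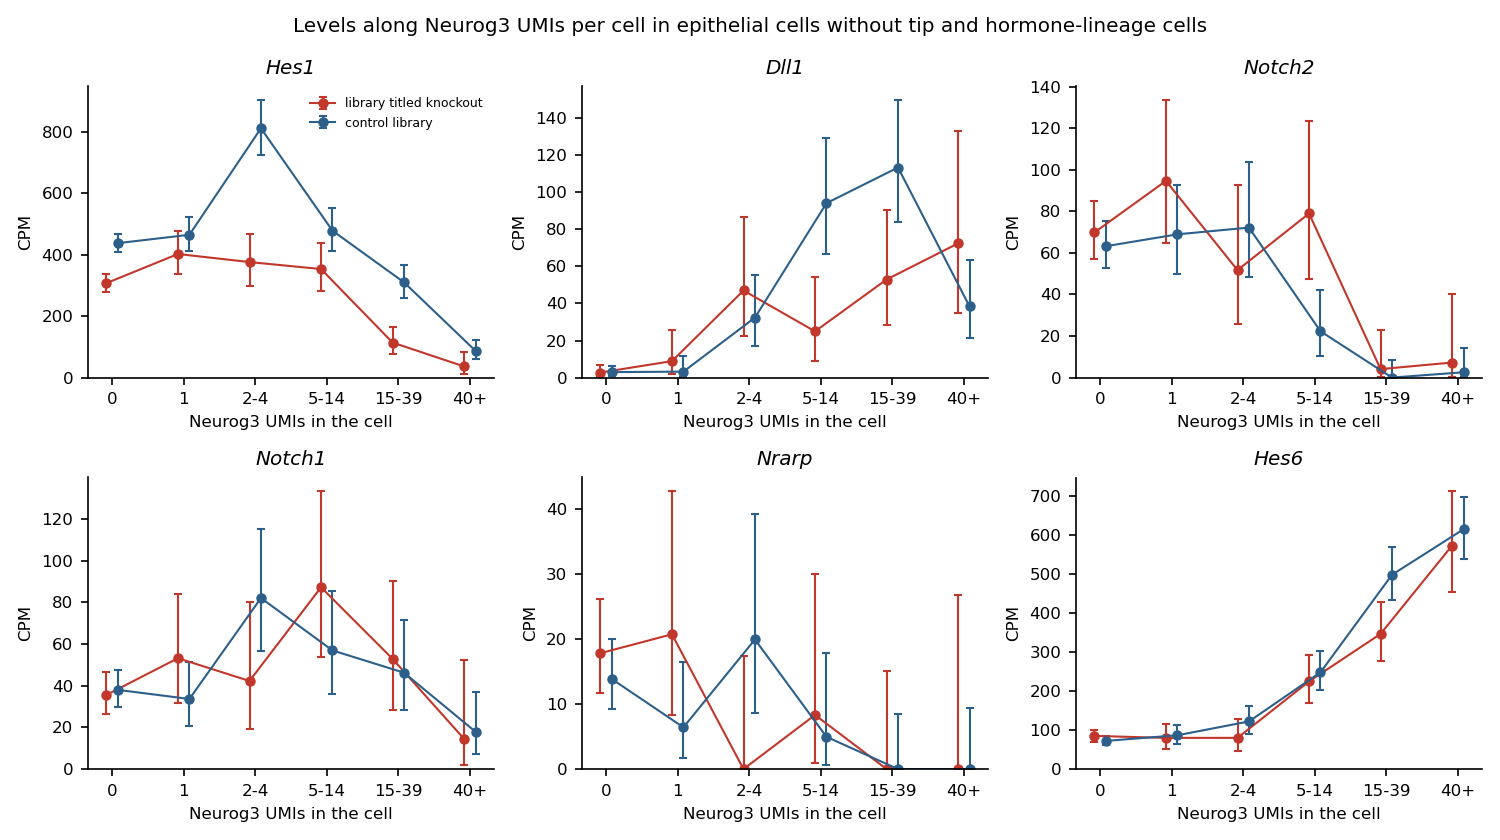
CPM (vertical axis, own scale per panel) of 6 genes against the number of Neurog3 UMIs in the cell (horizontal axis, 6 bins) for epithelial cells other than tip and hormone-lineage cells, with 95% Poisson intervals, the knockout library in red and the control library in blue. Hes1 is lower in the knockout library in each bin and low in both libraries at 40 or more Neurog3 UMIs, where Hes6 is highest.

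Within cells of 5 or more Neurog3 UMIs, Hes1 was counted more often in those control cells that held Dll1. Of control cells with a Dll1 UMI, 38 of 51 (74.5%, interval 60.4 to 85.7) also held a Hes1 UMI, against 24 of 78 without Dll1 (30.8%, 20.8 to 42.2). The control levels went the same way, at 469 CPM of Hes1 with Dll1 and 168 CPM without, and the median depths were near each other at 8990 UMIs with Dll1 and 8711 UMIs without. Neurog3 was not matched, with a median of 24 UMIs in control cells with Dll1 and 33 in those without, and its part in the Hes1 shares was not tested. In the knockout library 9 of 15 cells with Dll1 held a Hes1 UMI (60.0%, 32.3 to 83.7), against 14 of 39 without (35.9%, 21.2 to 52.8). The knockout CPM went against that share, at 139 with Dll1 and 213 without, so no order is read there. These shares were not thinned and are a description across cells of 1 embryo each.

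The wider pathway, 65 genes in 6 lists (receptors, ligands, Hes and Hey factors, nuclear partners, processing enzymes and receptor turnover), had median ratios between −0.08 and 0.18 in the 7 classes. In the trunk 44 were measured, of which 4 were higher and 0 lower past the fold, with a median ratio of 0.07 beside 0.0012 over all genes. In cells with 1 to 4 Neurog3 UMIs 3 of 32 were higher and 3 lower (median 0.18, all genes −0.0080), and in those with 5 or more, 2 of 39 were higher and 5 lower (median −0.08, all genes −0.01). Tip had 1 of 49 higher and 0 lower (median 0.11, all genes 0.01), and mesenchyme 0 of 53 higher and 2 lower (median −0.07, all genes −0.01). In mesothelium 2 of 36 were higher and 2 lower, and in endothelium 0 of 17 were higher and 3 lower. The shares of all genes past the fold in these classes are those given above.

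Apart from the members, 11 genes of the lists passed the fold in an epithelial class. Among nuclear partners, the acetyltransferases Kat2b (14 UMIs in knockout and 8 in control cells, ratio 0.70) and Ep300 (39 UMIs in knockout and 30 in control cells, ratio 0.68) were higher in knockout trunk cells. Rbpj, the DNA-binding partner of the receptors, was higher in knockout cells with 1 to 4 Neurog3 UMIs (47.2 CPM in knockout and 27.3 CPM in control cells, ratio 0.69). In the same cells Lfng, a glycosyltransferase that modifies Notch receptors, had a ratio of 0.96 and Adam17, a receptor-cleaving protease, 0.87. Fbxw7, which sends the Notch intracellular domain to degradation, had a ratio of −1.01 there, and the proprotein convertase Furin −0.63. In cells with 5 or more Neurog3 UMIs Kat2a had a ratio of 0.60, and Neurl1b, a ligand ubiquitin ligase (12 UMIs in knockout and 50 in control cells), −0.92. The secretase subunit Psen2 (−0.84) and the coactivator Maml1 (−0.60) were lower there as well. Each rests on few UMIs, at most 50 in a library, and only for Ep300 and Neurl1b did the counting interval of the fold leave out 1.

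Of the 65 genes, 40 could be compared between trunk and cells with 5 or more Neurog3 UMIs in both libraries, and 7 were higher past 2-fold in both (4.15% of all genes) and 1 lower (2.32%). Besides Dll1 these were Hes6, Rbpj, Maml3, Lfng, Mfng and Numbl, named here after their values were seen. Mfng, a second glycosyltransferase of Notch receptors, stood at 168 CPM in knockout and 220.1 CPM in control cells of that class, against 3.42 CPM in knockout and 4.44 CPM in control trunk cells. Numbl, a relative of the Notch antagonist Numb, stood at 33.6 CPM in knockout and 35.9 CPM in control cells, with 0.685 CPM in knockout and 0.494 CPM in control trunk cells. Lfng stood at 43.2 CPM in knockout and 35.1 CPM in control cells, with 4.79 CPM in knockout and 2.47 CPM in control trunk cells.

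Over the 14 class and library points, the genes whose level followed Hes1 most closely among 2370 candidates were Junb (Pearson r 0.88 of log2 CPM), Ier2 (0.82), Nrp1 (0.78), Plk2 (0.75), Ndufa10 (0.75) and Ccnd1 (0.74). The points share libraries and depth, and the r values are a description. Those most like Dll1 were Cpt2, Gse1, Pfdn4, Hes6, Rnf5 and Lrpap1 (r from 0.92 to 0.95). Junb and Ier2 are immediate early genes, which cells switch on within minutes of stimulation, tissue dissociation included. A list of 20 such genes, chosen with these data known, was therefore set beside Hes1.

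In mesenchyme the summed level of the immediate early genes was 3897 CPM in the knockout and 4447 CPM in the control library, with a median ratio of −0.22 over 18 measured genes and 2 lower past the fold (Nr4a1 at −1.01 and Ier3 at −0.93). Trunk cells had 2805 CPM in the knockout and 3357 CPM in the control library, with a median of −0.35 and 5 of 16 lower. In cells with 1 to 4 Neurog3 UMIs the sums were 2627 CPM in the knockout and 2967 CPM in the control library, with 7 of 15 lower and 2 higher, and in those with 5 or more 1959 CPM in the knockout and 2488 CPM in the control library, with 7 of 15 lower and 1 higher. Tip cells, where Hes1 was not lower, had 2048 CPM in the knockout and 2213 CPM in the control library, a median of −0.15, and 3 of 17 genes lower with 1 higher. Of all genes, 0.840% were lower past the fold in mesenchyme and 3.76% in trunk. In tip 2.35% were lower and 1.93% higher. With 1 to 4 Neurog3 UMIs 8.57% were lower and 7.05% higher, and with 5 or more 8.10% lower and 6.56% higher. The median of the immediate early genes was below 0 in trunk, mesenchyme, tip and both Neurog3 classes, where that of all genes lay between −0.01 and 0.01. It was above 0 in mesothelium (0.14) and endothelium (0.29), where the Hes1 ratios were −1.02 and −0.38. The mesothelial Hes1 ratio shrank to −0.31 with class gates of 10 UMIs, and the endothelial one changed to 0.27 after thinning. The part of the immediate early genes in the Hes1 ratio was not tested. In mesenchyme Hes1 (−1.06) stood near Nr4a1 (−1.01) and Ier3 (−0.93) and below Fos (−0.34), Junb (−0.42) and Ier2 (−0.07).

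**Figure D4:**
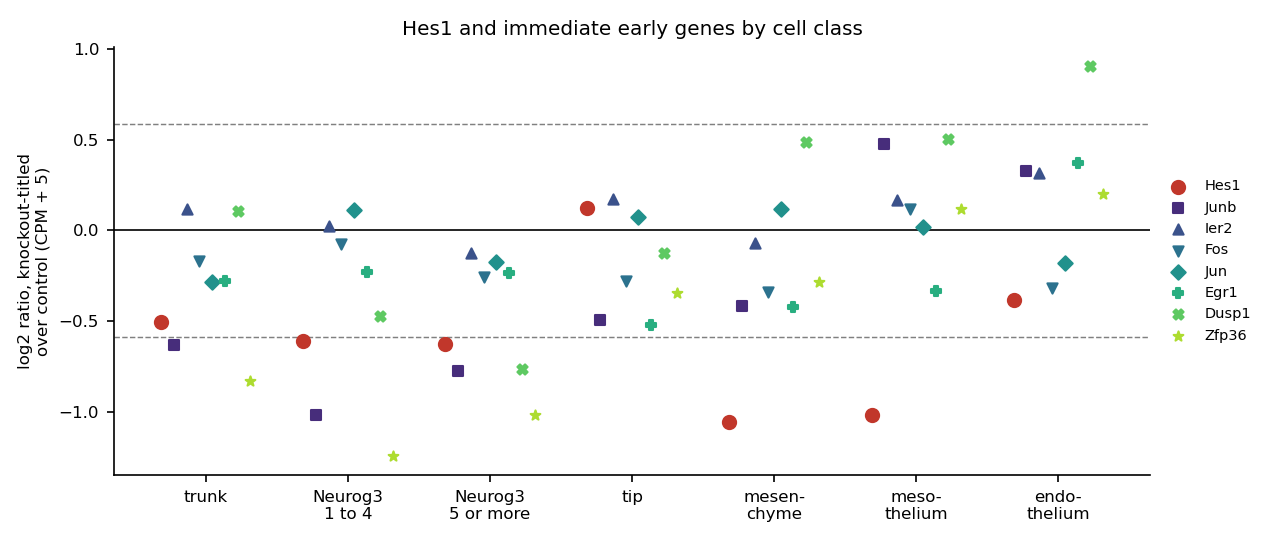
Log2 ratio of (CPM + 5), knockout over control (vertical axis), of Hes1 and 7 immediate early genes in 7 cell classes, with dashed lines at 1.5-fold in either direction. In mesenchyme Hes1 lies at −1.06 below the plotted immediate early genes, of which Dusp1 and Jun lie above 0, and in cells with 1 to 4 Neurog3 UMIs Junb (−1.02) and Zfp36 (−1.24) lie below Hes1 (−0.61). Nr4a1 (−1.01) and Ier3 (−0.93), the listed genes nearest Hes1 in mesenchyme, are not plotted.

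The authors' deposited table of cell clusters lists 4 of the members (Hes1, Jag1, Notch1 and Notch2), with each cluster set against the cells outside it and no column for the library. In the authors' deposited table, Hes1 was found in 23.5% of the cells of the Neurog3 cluster (cluster 4) and in 78.0% of cells outside it, a log2 fold of −1.29. For cluster 1, which carries Gcg, a glucagon transcript of hormone cells, the authors' deposited table gives Hes1 in 6.8% of cells inside and 75.1% outside. The authors' deposited table also lists Hes1 with a positive fold in clusters 3 and 7. It was found in 89.7% of cluster 3 and 67.6% outside, and in 79.8% of cluster 7 and 66.6% outside. Of the 2 clusters with a positive fold of Cpa1, cluster 3 lists Jag1, in 45.8% of its cells and 22.9% outside, and cluster 6 has no row for Jag1 in the authors' deposited table. Notch2 was found in 1.1% of the Neurog3 cluster and 32.1% outside, and in 5.7% of cluster 1 and 29.4% outside, again from the authors' deposited table. Its fold was positive in cluster 5 of the authors' deposited table, with 47.7% inside and 25.8% outside.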

How the data were processed

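Single-cell 3′ RNA libraries of 1 knockout-titled and 1 control pancreas were analysed, grouped by sample title. Values are UMI counts as the authors deposited them, 1 matrix per library. Per the submitters' processing notes, the tools were Cell Ranger and Seurat (2 and 3) and the build was GRCm38. Neither a Cell Ranger version nor the aligner is given in the sources used here. In the authors' deposited cluster table the fold is read as a natural log and was converted to log2, the share of cells is a fraction (printed as percent), and its p-value column was not used.

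Cells were kept with at least 500 genes, 1000 UMIs and at most 10% mitochondrial UMIs, which removed 32 knockout and 29 control barcodes. A simulated-doublet score was computed (2 simulated per cell, 50 neighbours, scikit-learn 1.9.0), and the highest 0.8% per 1000 barcodes were removed (73 knockout and 121 control cells). Classes were gated on at least 5 UMIs of class markers (10 for mesenchyme). Within epithelium Neurog3 of at least 5 came first, then Chga of at least 2 (hormone lineage), tip genes of at least 5, Neurog3 of 1 to 4, and trunk with at least 2 UMIs of Spp1 and Sox9. Class sums, CPM, exact Poisson and Clopper-Pearson intervals were computed with scipy 1.17.1, and TMM factors with edgeR 4.0.16 for an alternative scaling only. Thinning drew 3000 UMIs per cell and left out 57 knockout and 39 control cells under that depth. Scripts were tested on simulated data.

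The members and lists were chosen with earlier results of these data known. Named were the 9 members, pathway genes past 1.5-fold in an epithelial class (at most 12), and the 6 genes most like Hes1 or Dll1 among those with at least 100 CPM in a point and 200 UMIs in all. The alternatives changed the cell filter, doublets, gates, scaling, thinning, pseudocount and list minimum. Gene coordinates are from GENCODE M21 on GRCm38 and promoter sequences from RefSeq on GRCm38.p6.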

Additional observations from a re-analysis of the deposited data

Results flagged for a closer look

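Hey1 stood on opposite sides of the 1.5-fold line in different classes. It was higher in knockout trunk cells (28.8 CPM in the knockout and 17.3 CPM in the control library, ratio 0.60) and lower in knockout mesenchyme (3.26 CPM in the knockout and 8.20 CPM in the control library, ratio −0.68), so that the log2 ratios differed by 1.28. Against endothelium (19.8 CPM in the knockout and 91.9 CPM in the control library, ratio −1.97) the trunk ratio differed by 2.57. The difference between classes was not tested, since each group is 1 library. Every Hey1 count in these 3 classes but that of control mesenchyme was below 50 UMIs.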

How the results depend on the processing

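No paired analysis was possible because each group has 1 library. Hes1 in mesenchyme stayed between −1.12 and −1.04 and past 1.5-fold in all 18 alternatives (−1.12 after thinning to 3000 UMIs). Hes1 stayed past it in 13 of 17 for cells with 1 to 4 Neurog3 UMIs (−0.68 to −0.48), in 16 of 17 for 5 or more (−0.76 to −0.58) and in 0 of 17 for trunk (−0.56 to −0.42). With class gates of 10 UMIs, Hes1 in cells with 5 or more Neurog3 UMIs over trunk moved to −0.39 in the knockout and −0.20 in the control library. Dll1 in the same contrast was 3.67 (knockout) and 4.41 (control) with a pseudocount of 1, 1.55 (knockout) and 2.17 (control) with 20, and 3.98 in the control library after thinning. Jag1 in tip stayed past the fold in 16 of 17 alternatives, Dll1 in cells with 5 or more Neurog3 UMIs in 17 of 17, Hey1 in trunk in 12 of 17, in mesenchyme in 17 of 18 and in endothelium in 17 of 17. A further 601 values under alternatives were those of the other members and of Hes1 in mesothelium and endothelium. Of these, 585 moved by less than their counting error, 15 by more, and 1 reversed (Notch3 in trunk, −0.24 after thinning). Only ratios past the fold could be called reversed, and smaller ratios also changed sign. Hes1 in endothelium kept its sign in 15 of 17 alternatives and Notch1 there in 13 of 17. Hey1 kept its sign in 12 of 17 with 1 to 4 Neurog3 UMIs and in 15 of 17 with 5 or more. Leaving out the richest cell, the mesenchyme gate of 3 UMIs and CPM without immediate early genes were added after seeing the data. The counts of pathway genes past the fold moved by over 1.5 times where the classes are small. In trunk, higher: 2 thinned, 0 with a pseudocount of 20 or a minimum of 100 UMIs. Lower in trunk: 1 thinned and 2 with a pseudocount of 1. Higher with 1 to 4 Neurog3 UMIs: 6 without haemoglobin, mitochondrial and ribosomal genes or with a pseudocount of 1, 9 with the mean over cells or a minimum of 1 UMI, and 0 thinned, with a pseudocount of 20 or a minimum of 100. Lower there: 5 with gates of 10, 6 with a minimum of 1, and 1 with a pseudocount of 20 or a minimum of 100. Higher with 5 or more: 1 with the stricter cell filter, no doublet removal, either other scaling or a pseudocount of 20, 4 thinned, and 0 with a minimum of 100. Lower there: 3 with gates of 3, thinned or with a pseudocount of 20, and 2 with gates of 10 or a minimum of 100. In tip, higher: 2 thinned or with a pseudocount of 1 and 0 with 20, and lower 2 thinned. Lower in mesenchyme: 1 with a pseudocount of 20. Higher in mesothelium: 4 without doublet removal, without haemoglobin, mitochondrial and ribosomal genes or with the mean over cells, 5 with a pseudocount or minimum of 1, 1 with gates of 10 or thinned, and 0 with a pseudocount of 20 or a minimum of 100. Lower there: 1 with gates of 10 or a pseudocount of 20 and 0 with a minimum of 100. In endothelium a minimum of 1 UMI gave 11 higher and 14 lower, thinning 1 lower and a minimum of 100 UMIs 0. The cause was not tested. Counts under about 50 UMIs, in mesothelium, endothelium and the Neurog3 classes, limit what can be read.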
